A study of Homo sapiens with 8 samples.

Results

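This account covers the ORCA and methylated-DNA peaks that lay at the ends of 17 human chromosomes. The ends were both ends of chromosomes 1, 2, 3, 4, 5, 6, 9, 10, 11, 12, 16, 18 and 20 and the long-arm ends of chromosomes 13, 14, 15 and 21, 30 ends in all, written below as 1p for the short-arm end and 1q for the long-arm end. A peak belonged to an end when its midpoint was at most 1 Mb from the outermost peak on that side of the chromosome, whichever of the 4 lists that peak came from. This gave 4647 of the 98024 peaks of the 4 lists: 338 early, 427 mid and 113 late ORCA peaks, and 3769 MeDIP peaks. Because the rule takes the outermost peak as the end, each end holds at least 1 peak of some list at distance 0. Distances below are counted from this peak and not from the tip of the chromosome. On the short arms it lay between position 9932 (18p) and position 258906 (20p). Equal distances at different ends can thus be unlike distances from the tip. The offsets on the long arms were not determined here.

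The cells were U2OS, a human osteosarcoma line, and 1 line stands for all groups. ORCA was mapped by ChIP-seq in cells synchronized at early, mid and late G1, with 1 sample per stage, and methylated DNA was mapped by MeDIP-seq in 1 sample of U2OS cells whose labels give no cell cycle stage. The labels do not say how the cells were synchronized. Each of these 4 samples had an input, which was not analysed here. With 1 sample per group there was no replicate spread to set a difference against and no test was run. The 95% intervals printed below reflect counting error alone, and since nearby peaks depend on one another the true uncertainty is larger. The sources used here do not give the number of reads behind the lists. Positions are hg19 and are counted from 1.

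Chromosome ends carry long arrays of a short telomeric repeat, and the DNA next to them, the subtelomere, is rich in sequence shared between chromosomes. Further in, many human chromosome arms end in gene-dense, GC-rich DNA. ORCA, also named LRWD1, is a WD-repeat protein that binds the origin recognition complex, associates with repressive histone marks and has been described at heterochromatin, telomeres included. MeDIP pulls down fragments with methylated cytosine, so that a peak marks DNA rich in methylated CpG. No hg19 sequence or gene annotation was used here, so the sequences under the peaks and the genes they lie in are not given. The treatment of reads that match several places is likewise not given in the sources used here.

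All 4 lists were denser at the ends than in the interiors of the same chromosomes. The interior was everything between the end windows, without stretches of more than 1 Mb that held no peak of any list, and came to 1938 Mb against 30 Mb of ends. Late ORCA peaks numbered 3.77 per Mb at the ends and 0.273 per Mb in the interiors, a ratio of 13.8 (interval 11.1 to 16.9). For mid ORCA peaks the densities were 14.2 and 2.65 per Mb, a ratio of 5.38 (interval 4.86 to 5.94). Early ORCA peaks had 11.3 and 2.75 per Mb, a ratio of 4.10 (interval 3.66 to 4.58). MeDIP peaks had 125.6 and 24.8 per Mb, a ratio of 5.06 (interval 4.89 to 5.23).

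The ends made up 1.52% of the length considered. Of the peaks at the ends and in the interiors, they held 17.6% of the late ORCA peaks (interval 14.8 to 20.7), 7.69% of the mid peaks (interval 7.01 to 8.42) and 5.97% of the early peaks (interval 5.38 to 6.62). The late list was 33.4% as long as the early list at the ends and 9.96% as long in the interiors. The size of the gap between the stages depended on the length of the lists. With each ORCA list reduced to its 680 highest-scoring peaks, the length of the late list, the ends held 93 early, 106 mid and 113 late peaks, and the ratios were 10.9 (interval 8.63 to 13.6), 12.6 (interval 10.1 to 15.5) and 13.8. These intervals overlap, and the difference between the stages itself was not tested. The late list also carries another caller label than the early and mid lists, and its part cannot be told apart from that of the stage. The higher density at the ends held on most chromosomes: the ends were denser than their own interior on 17 of 17 chromosomes for mid and late peaks and on 16 of 17 for early and MeDIP peaks, the exception being chromosome 14.

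Density changed with distance in different ways for ORCA and for methylated DNA. In the outermost 100 kb, early ORCA peaks had a density of 24.7 per Mb, which is 8.98 times the interior density (interval 7.04 to 11.3). Mid peaks had 19.7 per Mb, 7.43 times the interior (interval 5.65 to 9.60), and late peaks 10.7 per Mb, 39.0 times the interior (interval 26.4 to 55.7). MeDIP peaks had 72.0 per Mb there, 2.90 times the interior (interval 2.53 to 3.31), near their lowest level within the outer 1 Mb, although they reached 125.0 per Mb in the first 20 kb, where 15 of the ends were set by a MeDIP peak. From 100 to 200 kb the early and mid densities fell to 6.67 and 8 per Mb, and the late density to 3.33 per Mb, while MeDIP stayed at 68.7 per Mb. MeDIP peaks then became denser inward and reached 155.0 per Mb between 500 and 600 kb.

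**Figure D1:**
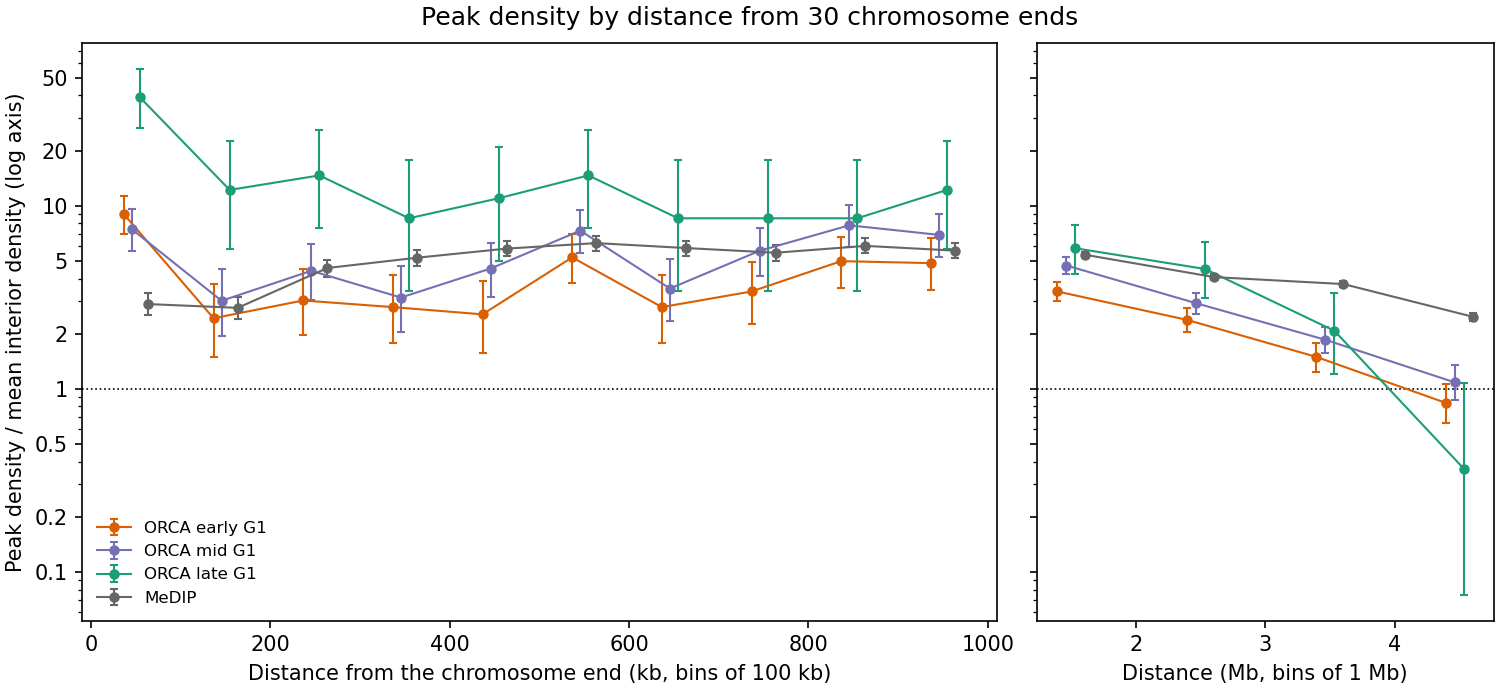
Peak density by distance from the 30 chromosome ends, as a ratio to the mean interior density of the same list on a log axis, in bins of 100 kb (left) and 1 Mb (right); points are the 4 lists and bars are 95% counting intervals. The outermost bin holds the highest ratio for early and late ORCA peaks, 8.98 and 39.0, and one of the 2 lowest of the outer 1 Mb for MeDIP, 2.90.

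The outermost 100 kb set against the stretch from 500 kb to 1 Mb gave a density ratio of 2.11 for early ORCA peaks (interval 1.59 to 2.79) and 3.72 for late ORCA peaks (interval 2.28 to 6.02). For mid peaks it was 1.19, with an interval from 0.880 to 1.59 that holds 1. For MeDIP it was 0.494 (interval 0.428 to 0.568). Since the ends were placed at outermost peaks, those peaks alone were also left out: the ratios were then 2.11 for early, 0.968 for mid, 3.26 for late and 0.460 for MeDIP. Peaks of other stages that overlapped an outermost peak were kept. Among ORCA peaks, 11 mid and 4 late ones set an end and no early one did, so the early ratio could not change. This check therefore cannot separate the early and late gradients from the choice of the end.

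Inward of the ends ORCA peaks thinned out over the next 4 Mb, and MeDIP peaks stayed as dense for another 1 Mb and then thinned out. Between 1 and 2 Mb the ratio to the mean interior density was 3.40 for early, 4.71 for mid, 5.85 for late and 5.40 for MeDIP peaks, the last against 5.06 at the ends themselves. Between 4 and 5 Mb the early, mid and late ratios were 0.838, 1.08 and 0.366, each with an interval that holds 1, and 2.47 for MeDIP (interval 2.36 to 2.59). Compared with only the 1 to 5 Mb next to them, the ends had a density ratio of 2.02 for early, 2.03 for mid, 4.30 for late (interval 3.27 to 5.67) and 1.29 for MeDIP peaks (interval 1.24 to 1.34). Most of the MeDIP density at the ends was thus shared with the next 4 Mb, which held 97.3 peaks per Mb, whereas the late ORCA density fell from 3.77 to 0.875 per Mb.

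At many ends the first few kilobases from the outermost peak held an ORCA region, a stretch made by joining ORCA peaks of any stage that overlapped. At 15 of the 30 ends the outermost peak of all came from an ORCA list, at 11 of them from the mid and at 4 from the late list. Within 2 kb of the end lay 20 ORCA regions at these 15 ends. Of the 20 regions, 19 held a mid, 16 an early and 16 a late peak, and 14 held a peak of all 3 stages (70.0%, interval 48.1 to 85.5). Since these ends were placed on a mid or a late peak, the mid and late counts are partly set by that choice. The interval is therefore not that of a freely sampled share. They were 387 to 1986 bp wide.

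These outermost regions began at similar positions on 4 of the 7 short arms with an outermost ORCA peak. Where the assembled sequence of these arms begins was not determined here, and its part in the similar starts was not tested. The first ORCA region began at 9935 on chromosome 1, at 9935 on chromosome 4, at 10071 on chromosome 9 and at 9932 on chromosome 18, within 139 bp of one another in chromosome coordinates. It ended at 10766 on chromosome 1, at 10771 on chromosome 4, at 10839 on chromosome 9 and at 10796 on chromosome 18. All 4 regions held a peak of every stage. On 4p a second region of all 3 stages followed from 11168 to 12587, with an early score of 418.43, a mid score of 963.23 and a late score of 967.6. On 2p there was a mid peak alone, from 10468 to 10998, with a score of 56.56. On 12p and 16p the first region, of all 3 stages, began elsewhere, at 73694 and at 59972. Among the long arms, regions of all 3 stages spanned 249238194 to 249239460 on chromosome 1, 135522699 to 135524464 on chromosome 10 and 48117807 to 48119783 on chromosome 21. Others spanned 191041319 to 191042412 on chromosome 4 and 102519652 to 102520252 on chromosome 15. The score is the peak caller's own and is read only within a list.

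None of these 20 outermost ORCA regions overlapped a MeDIP peak. The limit for a count of 0 would be 15% (3 of 20). These ends, however, were placed on an ORCA peak that lay further out than any MeDIP peak. The count is thus partly set by that choice, and the limit is not that of a freely sampled share. Further in, 18 of the 25 regions between 2 and 20 kb overlapped a MeDIP peak (72.0%, interval 52.4 to 85.7), and none of these 25 held peaks of all 3 stages. Over all ORCA regions, 58.9% at the ends and 29.4% in the interiors overlapped a MeDIP peak. Regions of all 3 stages were 10.98% and 2.63% of them, so that few were to be found among 25. At the 15 ends with an outermost ORCA peak, the first MeDIP peak began between 1.14 kb (18p) and 145.8 kb (2q) further in, with a median of 17.9 kb. At the other 15 ends a MeDIP peak was outermost, and the first ORCA peak followed after 4.21 kb (16q) to 1330 kb (3p), with a median of 31.98 kb. The choice of the outermost peak as the end favours such a separation, since whichever list reaches furthest marks distance 0.

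**Figure D2:**
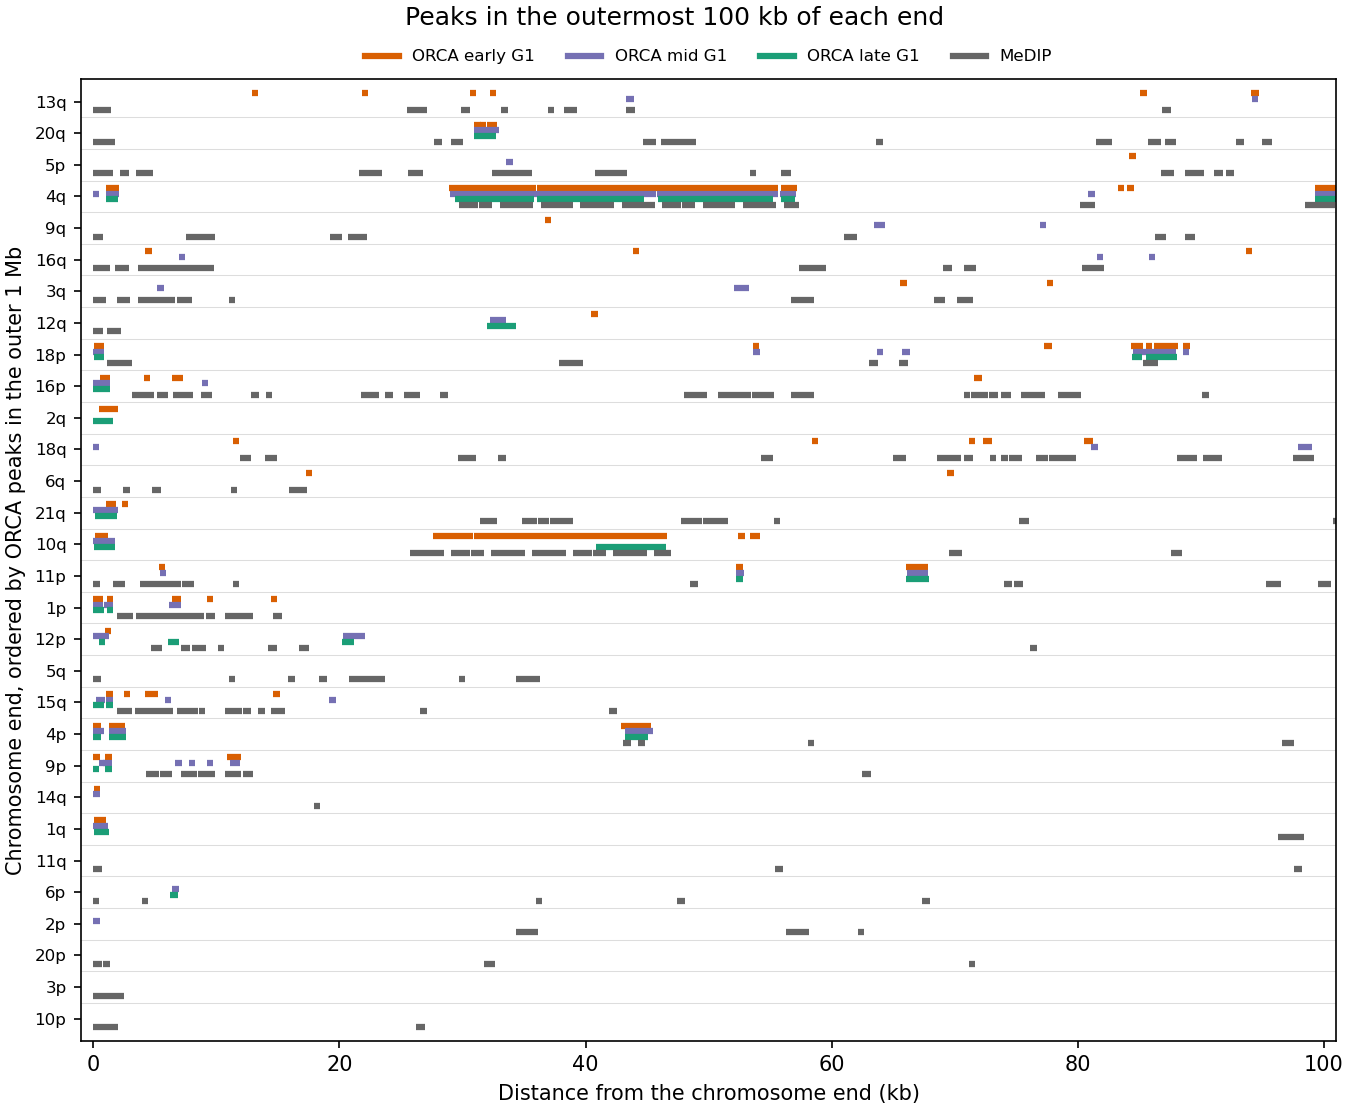
Peaks of the 4 lists in the outermost 100 kb of each of the 30 ends, by distance from the end in kb; each bar is 1 peak (peaks under 0.5 kb are drawn 0.5 kb wide) and ends are ordered by their ORCA peaks in the outer 1 Mb. ORCA peaks of several stages stack at distance 0 on ends such as 1p, 4p, 18p and 10q, where MeDIP peaks begin further in, and the widest ORCA regions lie on 4q and 10q.

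The ends of 4q and 10q held the widest ORCA regions of the outermost 100 kb. As background, both ends carry the D4Z4 repeat array, whose units hold the gene DUX4. On chromosome 4 a region of all 3 stages ran from 190987781 to 191014511, 26731 bp, and overlapped MeDIP peaks with a score of up to 3100. At the ends 494 MeDIP peaks had this score or a higher one. On chromosome 10 a region of early and late G1 ran from 135477832 to 135490241, 12410 bp, followed by early-only regions from 135490284 to 135493552 and from 135493577 to 135496855, all with a MeDIP peak. Whether these regions lie in the array was not determined here.

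The 30 ends differed widely among themselves. Early ORCA peaks per end ran from 0 to 43 with a median of 9, mid peaks from 0 to 58 with a median of 9.5, late peaks from 0 to 13 with a median of 3.5, and MeDIP peaks from 4 to 250 with a median of 108.5. An end was called dense when it held at least 2 times the mean interior density of the list. By this rule 19 of 30 ends were dense in early ORCA peaks (63.3%), against 12.9% of 1922 interior windows of 1 Mb. The counts were 23 ends (76.7%) against 13% of windows for mid peaks, 25 ends (83.3%) against 13.3% for late peaks and 23 ends (76.7%) against 14% for MeDIP peaks. For late peaks a single peak reached the threshold, and 86.7% of the interior windows held none.

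The end of 13q held the most ORCA peaks, 43 early, 58 mid and 9 late, with 195 MeDIP peaks. The end of 20q followed with 39 early, 57 mid and 6 late peaks and 232 MeDIP peaks, and 5p with 34, 50 and 6 and 237 MeDIP peaks. These 3 ends were high in early and mid peaks alike. Most of their ORCA peaks lay more than 100 kb from the end: the outermost 100 kb held 6 early, 2 mid and no late peaks at 13q, and 1 early, 1 mid and no late peak at 5p. The next were 4q, with 18 early, 20 mid and 13 late peaks beside only 43 MeDIP peaks, and 9q, with 16, 22 and 8 beside 178 MeDIP peaks. The end of 4q had the most late peaks of all ends. Together these 5 ends held 44.4% of the early, 48.5% of the mid and 37.2% of the late ORCA peaks at the ends, and 23.5% of the MeDIP peaks.

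The genes nearest the tips are named here from RefSeq's annotation of GRCh38, another build than that of the peaks, so that no peak was assigned to a gene. From the tip inward, the protein-coding genes of 13q begin with CHAMP1, which acts in chromosome alignment at mitosis, UPF3A, a factor of nonsense-mediated mRNA decay, and CDC16, a subunit of the anaphase-promoting complex. Those of 20q begin with PCMTD2 and MYT1, a zinc finger transcription factor of the nervous system. On 9q the order begins with CACNA1B, a calcium channel subunit, and EHMT1, a histone H3 lysine 9 methyltransferase. On 4q it begins with DUX4, FRG2 and FRG1.

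At the other extreme, 2 ends held no ORCA peak of any stage. The end of 10p had 138 MeDIP peaks and no ORCA peak, and its first ORCA peaks, of mid and late G1, lay 1188 kb from the end. The end of 3p had 4 MeDIP peaks, and its first ORCA peak lay 1330 kb in. Another 3 ends held no late peak: 2p, with 3 mid and no early peaks, 20p, with 1 early and 2 mid peaks, and 11q, with 2 early and 3 mid peaks. The end of 6p held 2 mid and 2 late but no early peaks. MeDIP peaks numbered 76 at 2p, 40 at 20p, 53 at 11q and 69 at 6p, all above the mean interior density of 24.8 MeDIP peaks per Mb. The end of 14q, which carries the immunoglobulin heavy chain locus, had 10 MeDIP peaks and 4 early, 7 mid and 3 late ORCA peaks, none of them overlapping a MeDIP peak.

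**Figure D3:**
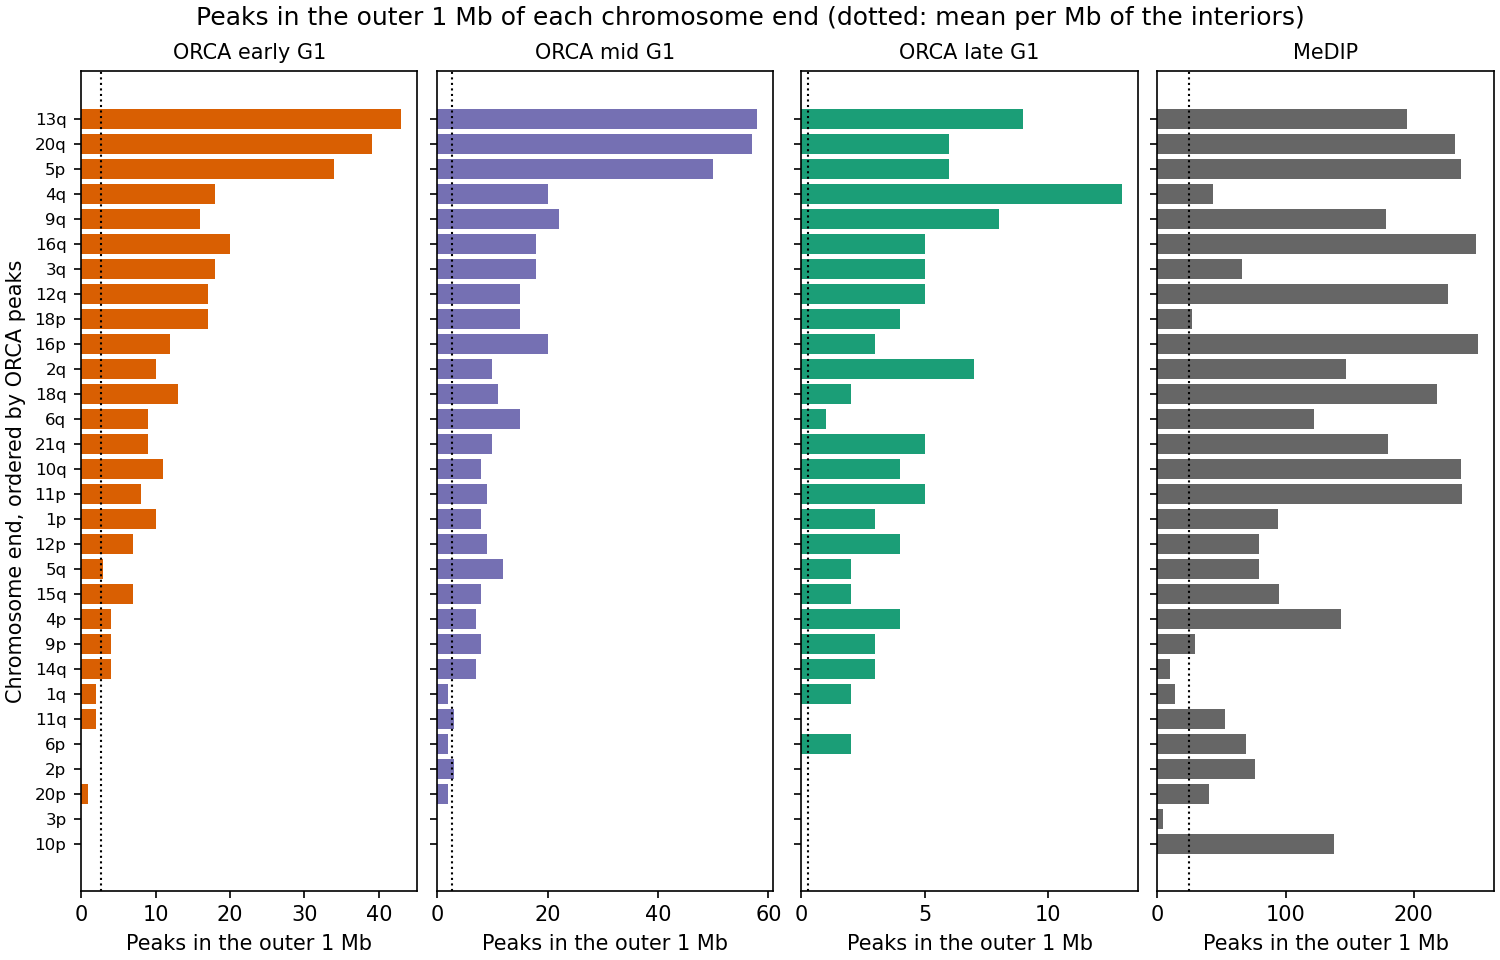
Number of peaks in the outer 1 Mb of each of the 30 ends (bars) in the 3 ORCA lists and the MeDIP list, with ends ordered by the sum of ORCA peaks and the mean interior density per Mb as a dotted line. The ends 13q, 20q and 5p lead the early and mid lists, 4q leads the late list with 13 peaks, and 10p has 138 MeDIP peaks and no ORCA peak.

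Across the 30 ends, the number of early peaks went with the number of mid peaks (Spearman's rho 0.92, Pearson's r 0.96). Late peaks went with early peaks at a rho of 0.81 and with mid peaks at 0.76. The relation to MeDIP was looser, with a rho of 0.55, 0.54 and 0.46 for the early, mid and late lists. Across the 1922 interior windows the rho was 0.68 between early and mid peaks and 0.35, 0.41 and 0.25 between MeDIP and early, mid and late peaks. These are descriptions across places in the same 4 libraries. The short-arm and long-arm ends also differed: the 17 long-arm ends held 14.2 early, 17.3 mid and 4.65 late peaks per Mb, and the 13 short-arm ends 7.46, 10.2 and 2.62. MeDIP peaks numbered 137.9 per Mb on the long-arm ends and 109.5 on the short-arm ends.

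Ends and interior windows were also set side by side within 2 ranges of MeDIP peak number. In 68 interior windows with at least 108.5 MeDIP peaks, the median of the ends, a choice made after the data were seen, the median was 4 early, 5 mid and 0 late ORCA peaks. At the 15 ends with as many MeDIP peaks it was 12 early, 15 mid and 5 late peaks. These ends had somewhat more MeDIP peaks than the windows, a median of 218 against 148.5. At the 15 ends with fewer MeDIP peaks the medians were 4, 8 and 2, against 1, 1 and 0 in the other 1854 windows. In this lower range the MeDIP numbers were not alike, with a median of 53 at the ends and 10 in the windows.

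ORCA peaks at the ends recurred between stages more often than those in the interiors. A mid peak was found at 160 of 338 early peaks at the ends (47.3%, interval 42.1 to 52.7) and at 22.0% of 5322 interior early peaks, a difference of 25.4 percentage points (interval 19.99 to 30.8). Over all early peaks of the 17 chromosomes the share was 24.2%. An early peak was found at 153 of 427 mid peaks at the ends (35.8%) and at 22.4% of interior mid peaks, a difference of 13.4 points (interval 8.90 to 18.2), against 24.2% over all mid peaks. Of the 113 late peaks at the ends, 90 overlapped a mid peak (79.6%) and 81 an early peak (71.7%). In the interiors these shares were 62.8% and 57.5% of 530 late peaks, and over all late peaks 66.8% and 61.3%. The differences were 16.8 points (interval 7.56 to 24.5) for mid and 14.1 points (interval 4.31 to 22.7) for early peaks.

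Peaks at the ends also had higher scores within their lists, and the score bears on these shares. The highest-scoring 20% of the early list made up 37.0% of the early peaks at the ends and 18.5% of those in the interiors. For mid peaks the same shares were 33.7% and 18.4%, and for late peaks 41.6% and 15.7%. With the interior shares weighted to the score ranks at the ends, the difference was 17.1 points for early with mid peaks, 7.15 for mid with early, 7.24 for late with mid and 3.12 for late with early peaks. Against the 1 to 5 Mb next to the ends, the differences of the late peaks were 7.27 points with mid (interval -4.05 to 18.5) and 2.16 points with early peaks (interval -9.81 to 14.1), and a difference was not detectable with these counts. For early with mid peaks it was 12.5 points (interval 6.03 to 18.8). Among the higher-scoring peaks of each list, by its median, the late differences were 10.9 points with mid and 10.3 points with early peaks, both with intervals that hold 0, as did late with early when the outermost 100 kb were left out (10.4 points, interval -1.19 to 20.4).

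**Figure D4:**
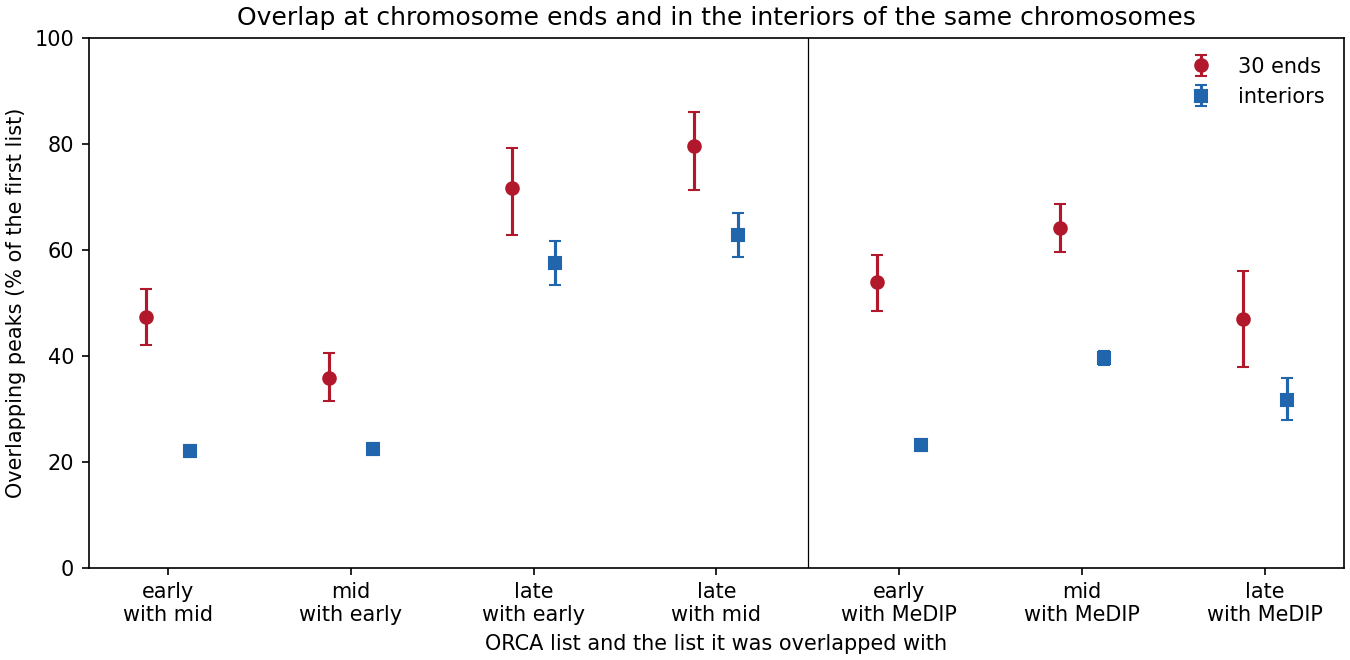
Share of the peaks of each ORCA list that overlapped a peak of another ORCA list (left) or of the MeDIP list (right), in percent, at the 30 ends and in the interiors of the same chromosomes, with 95% Wilson intervals. All 7 shares were higher at the ends, from 35.8% against 22.4% for mid with early peaks to 79.6% against 62.8% for late with mid peaks.

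Of the distances compared, the share of early and mid peaks that met a late peak was highest in the outermost 100 kb. This stretch includes the 20 ORCA regions within 2 kb of ends placed on an ORCA peak, and 16 of these held a late peak. Further in, a late peak was held by 2 of 25 regions from 2 to 20 kb, 10 of 49 from 20 to 100 kb and 35 of 179 from 100 to 500 kb. Late peaks were themselves densest there, at 10.7 per Mb in the outermost 100 kb and 2.87 per Mb from 500 kb to 1 Mb, and the part of this density in the sharing was not tested. A late peak was found at 40.5% of 74 early peaks in the outermost 100 kb (interval 30.1 to 51.9), at 24.7% of 89 from 100 to 500 kb, at 18.3% of 175 from 500 kb to 1 Mb and at 5.41% of early peaks beyond 5 Mb. For mid peaks the shares were 47.5% of 59 (interval 35.3 to 60.0), 22.5% of 120, 13.3% of 248 and 6.32%. Over all peaks of the 17 chromosomes, 7.67% of early and 8.25% of mid peaks overlapped a late peak. In the outermost 100 kb, 29 of the 32 late peaks overlapped a mid peak and 26 an early peak. These 32 late peaks were wide: their median width was 1222 bp, while interior late peaks had one of 768 bp, and 71.9% of them belonged to the highest-scoring 20% of the late list.

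Merging the ORCA lists gave 610 regions at the ends and 9346 in the interiors. Regions of all 3 stages were 67 of the 610 (10.98%, interval 8.74 to 13.7) and 246 of the interior regions (2.63%), a difference of 8.35 points (interval 6.08 to 11.1). Over all regions of the 17 chromosomes the share was 3.35%. Early-only regions were 169 at the ends (27.7%) and 43.9% in the interiors, a difference of -16.2 points (interval -19.7 to -12.3). Mid-only regions made up 257 (42.1%) and 41.7%, a difference of 0.44 points (interval -3.54 to 4.52). Late-only regions were 15 (2.46%) at the ends and 1.56% in the interiors. Put the other way, the ends held 6.13% of all regions but 67 of the 313 that held every stage (21.4%, interval 17.2 to 26.3), and 24 of the 30 ends had such a region.

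Regions of all 3 stages at the ends stood high in the lists. Ordered by mean rank, 5 of the first 10, 8 of the first 20, 17 of the first 50 and 32 of the first 100 lay at the ends. The best at the ends were those on 16q, from 90060419 to 90063658, and on 18p, from 94277 to 98059, with a score of 3100 in every list. This top score of the ORCA lists was a tie: 2 early, 5 mid and 4 late peaks at the ends had it, and 13, 6 and 3 in the interiors. The score does not order the tied peaks. They were followed by one on 9q, from 141019964 to 141024015, one on 21q, from 47233803 to 47236420, and one on 2q, from 242838231 to 242839280, with scores of 2991.79, 1426.85 and 1646.08 in the early list. These 5 places also held the 5 highest-scoring end peaks of each ORCA list. They lay 86.2 to 884.7 kb from the end, so that none was among the outermost 2 kb, and those on 18p and 9q overlapped a MeDIP peak.

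The next by mean rank were 132866642 to 132868808 on chromosome 12, 140610313 to 140611244 on chromosome 9, the wide region of 4q and the second region of 4p described above, and 134639237 to 134640708 on chromosome 10. All but the region on 4p had a MeDIP peak.

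Each single stage also had regions of its own. The best early-only regions were the 2 on 10q given above, with early scores of 922.6 and 330.82, the first of them above the early score of some of the regions of all 3 stages just given, and one on chromosome 9 from 140778747 to 140780469, with 199.33. The best mid-only regions spanned 318734 to 319490 on chromosome 2, 197899974 to 197901252 on chromosome 3 and 77917385 to 77918510 on chromosome 18, with mid scores of 240.4, 209.54 and 198.54. The best late-only regions were 2 on chromosome 12, spanning 133633970 to 133635611 and 133502177 to 133503615, with late scores of 340.21 and 335.65, and 1 on chromosome 3, spanning 197243882 to 197244629, with 126.87. None of these late-only regions overlapped a MeDIP peak. Of the 15 late-only regions at the ends, 2 overlapped one.

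With the peaks of all ends pooled, methylated DNA coincided with ORCA peaks more often at the ends than in the interiors. Of 338 early peaks at the ends, 182 overlapped a MeDIP peak (53.8%, interval 48.5 to 59.1), and 23.1% of interior early peaks did so, 30.7 points lower (interval 25.3 to 36.1). For mid peaks the shares were 274 of 427 (64.2%, interval 59.5 to 68.6) and 39.5%, a difference of 24.7 points (interval 19.8 to 29.3). For late peaks they were 53 of 113 (46.9%, interval 38.0 to 56.1) and 31.7%, a difference of 15.2 points (interval 5.37 to 25.1). Over all peaks of the 17 chromosomes the shares were 25.1%, 41.4% and 34.9%. The MeDIP density moved with these shares, at 125.6 peaks per Mb at the ends and 24.8 in the interiors. Its part in the overlap was not tested. Single ends differed widely. At 13q 81.8% of 110 ORCA peaks overlapped a MeDIP peak, at 20q 71.6% of 102 and at 5p 74.4% of 90. At 2q it was 25.9% of 27 and at 21q 25.0% of 24. At 14q, 11q, 6p and 20p, with 14, 5, 4 and 3 ORCA peaks, none did. The intervals do not include this spread. Without 13q the early, mid and late differences were 27.04, 21.49 and 12.53 points. Leaving out 20q or 5p was not tested. Against the 1 to 5 Mb next to the ends, where MeDIP peaks numbered 97.3 per Mb, early peaks differed by 6.54 points (interval 0.0018 to 12.99), mid peaks by 6.43 (interval 0.725 to 11.97) and late peaks by 7.86 (interval -5.24 to 20.5). With ORCA lists of equal length the mid difference was 4.57 points (interval -5.80 to 14.4), and the late difference was 8.88 points in the higher-scoring part of the lists (interval -2.83 to 21.2) and 6.38 points without the widest 5% of peaks (interval -2.14 to 16.1).

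The MeDIP share was not even along the ends. In the outermost 100 kb it was 37.8% of 74 early peaks (interval 27.6 to 49.2), 39.0% of 59 mid peaks (interval 27.6 to 51.7) and 25.0% of 32 late peaks (interval 13.3 to 42.1). Between 500 kb and 1 Mb it was 68.0% of 175 early peaks (interval 60.8 to 74.5), 73.8% of 248 mid peaks (interval 68.0 to 78.9) and 67.4% of 43 late peaks (interval 52.5 to 79.5). MeDIP peaks numbered 72.0 per Mb in the first of these stretches and 145.7 in the second, and the part of this density in the shares was not tested. The intervals of the shares in the 2 stretches do not overlap for any of the 3 stages. The outermost 100 kb, however, include the 20 ORCA regions within 2 kb of ends placed on an ORCA peak, none with a MeDIP peak. Among ORCA regions further in, the share was 72.0% of 25 from 2 to 20 kb and 36.7% of 49 from 20 to 100 kb. From 500 kb to 1 Mb it was 69.1% of 337 regions, and over all ORCA regions at the ends 58.9%. The shares then fell to 60.7%, 68.2% and 54.2% between 1 and 2 Mb and to 19.7%, 35.9% and 29.9% beyond 5 Mb. With ends of 500 kb in place of 1 Mb, the late share was 0.048 points above that of the interiors (interval -10.7 to 12.3), while early peaks were 14.01 and mid peaks 9.81 points above.

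**Figure D5:**
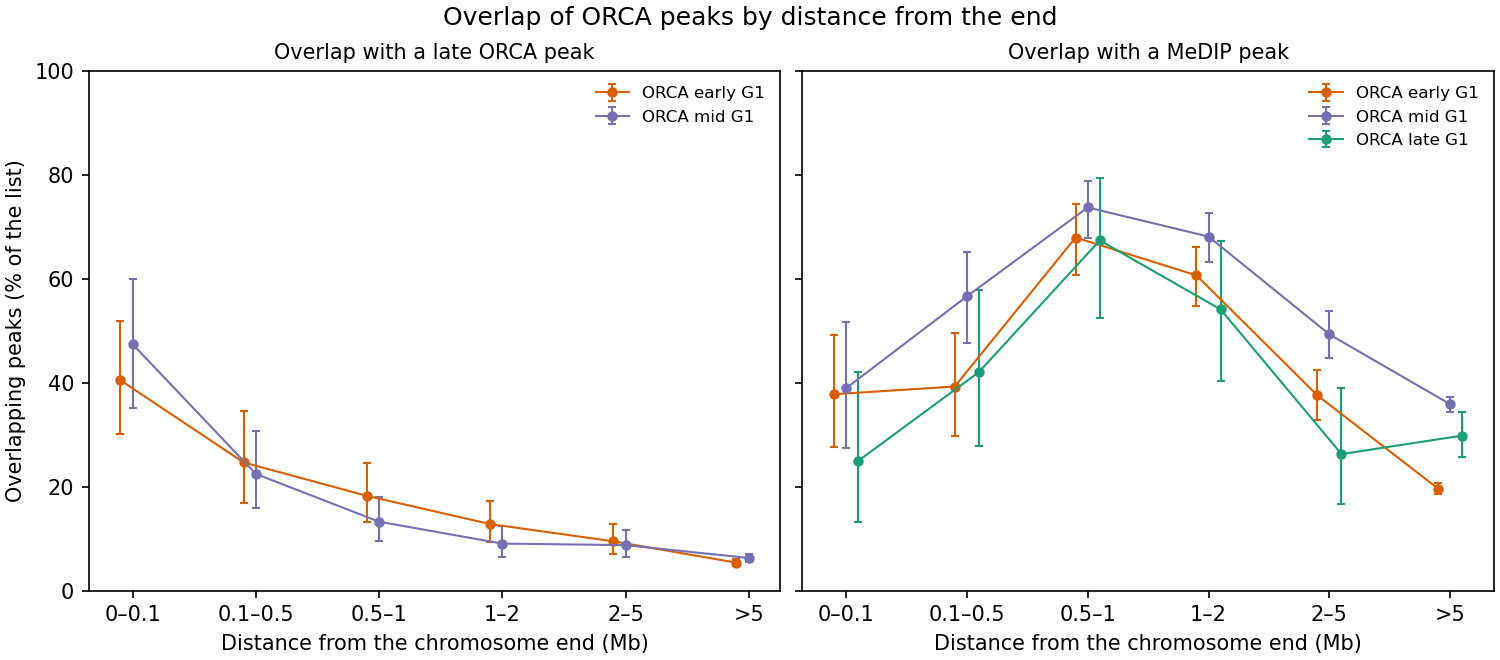
Share of early and mid ORCA peaks that overlapped a late peak (left) and share of ORCA peaks of each stage that overlapped a MeDIP peak (right), in percent, by distance from the chromosome end, with 95% Wilson intervals. Sharing with late G1 is highest in the outermost 100 kb, 40.5% for early and 47.5% for mid peaks, while the MeDIP share is highest from 500 kb to 1 Mb, 67.4% to 73.8%.

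Regions of all 3 stages also had a lower MeDIP share in the outermost 100 kb. In the outermost 100 kb, 4 of 21 such regions overlapped a MeDIP peak (19.0%, interval 7.67 to 40.0), and 31 of 46 did so between 100 kb and 1 Mb (67.4%, interval 53.0 to 79.1), a difference of 48.3 points (interval 22.9 to 64.7). Of the 21 regions, 14 lay within 2 kb of ends that were placed on an ORCA peak, and none of the 14 overlapped a MeDIP peak. Of the 7 between 20 and 100 kb, 4 did. The difference thus rests largely on regions that the choice of the end favours. Over the whole ends the share was 52.2%, against 44.7% in interior regions of all 3 stages, a difference of 7.52 points with an interval from -5.79 to 20.5. The difference from the interiors varied with the stages a region held. Early-only regions had a MeDIP peak in 50.3% of cases at the ends and 17.3% in the interiors, and mid-only regions in 68.5% and 38.7%. Regions of mid and late G1 had one in 43.75% of 16 cases at the ends and 17.3% in the interiors, a difference of 26.4 points (interval 3.43 to 50.5), and regions of early and mid G1 in 64.1% and 44.02%. Late-only regions had one in 13.3% and 16.4% of cases.

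Seen from the MeDIP list, 340 of 3769 MeDIP peaks at the ends overlapped an ORCA peak of any stage (9.02%, interval 8.15 to 9.98), against 5.29% in the interiors, a difference of 3.73 points (interval 2.84 to 4.71). Over all MeDIP peaks of the 17 chromosomes the share was 5.65%. By stage, 5.15% of the MeDIP peaks at the ends overlapped an early peak, against 2.48% in the interiors and 2.75% over all. For mid peaks the shares were 7.005%, 3.89% and 4.19%, and for late peaks 1.88%, 0.370% and 0.513%. In the outermost 100 kb an ORCA peak of any stage was found at 27.8% of 216 MeDIP peaks (interval 22.2 to 34.1), and between 100 and 500 kb at 5.93% of 1367. A wide ORCA peak can meet several MeDIP peaks. In the outermost 100 kb 48 MeDIP peaks overlapped an early peak, whereas 28 early peaks overlapped a MeDIP peak. The ends with the widest ORCA regions, 4q and 10q, held 12 and 13 MeDIP peaks in their outermost 50 kb. The part of these regions in the share was not tested. MeDIP peaks at the ends were wider than those in the interiors, the medians being 974 and 820 bp, and had a median score of 325.51 against 169.4. The 5 highest-scoring ones spanned 681548 to 683659 and 1003686 to 1004600 on chromosome 4, 133014253 to 133016951 on chromosome 12, and 135146536 to 135149906 and 134719279 to 134720816 on chromosome 10. ORCA peaks of the 3 stages overlapped none of the 5.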

How the data were processed

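Peak lists of 4 U2OS samples were used, 1 per group; the 4 inputs were not analysed here. Reads were processed with Trimmomatic and Bowtie 0.12.7 against GRCh37 (hg19), per the submitters' processing notes. The authors' deposited lists give each peak's start, end and a score, read here as a value of the peak caller; the lowest was 50. Peaks are named in the style of MACS, per the file contents; the caller's version, settings and control are not given in the sources used here, and the late list carries another caller label than the early and mid lists. Depth is unknown, and a list's length depends on it.

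Peaks of the 17 chromosomes were used without a filter. Overlap meant at least 1 bp. The first 1 Mb of chromosomes 13, 14, 15 and 21 counted neither as end nor as interior. Density ratios have exact intervals conditional on the total, shares Wilson and differences Newcombe intervals. Named regions were the 5 highest-scoring end peaks per list, the 10 best end regions of all 3 stages by mean score rank, the 5 best of these with MeDIP, the 3 best per single stage, the 5 ends with the most and the 5 with the fewest ORCA peaks and every end without a late peak. The members, lists and rules were chosen with earlier results of these data known. Alternatives were other end widths, overlap rules, score and width limits, list lengths and weightings; those on score-rank weighting, on densities at equal list length and on leaving out the outermost 100 kb were chosen after seeing the data. Overlap and density code was tested on simulated data. Python 3.11.15, numpy 2.4.6, pandas 2.3.3, scipy 1.17.1, statsmodels 0.14.6 and matplotlib 3.10.9 were used.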

Additional observations from a re-analysis of the deposited data

Results flagged for a closer look

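The change of density toward the outermost peak differed between the lists. The density in the outermost 100 kb over that from 500 kb to 1 Mb was 2.11 for the early sample, 1.19 for the mid sample and 3.72 for the late sample, and 0.494 for the MeDIP sample. These values drew attention because the ORCA values were above 1 and the MeDIP value was below 1, a difference that was not tested. For the mid sample this rests on the 11 mid peaks that set the ends: its interval holds 1, and without these peaks the value was 0.968 (interval 0.695 to 1.32). Early and late peaks that overlapped a peak setting an end were kept, so their values were not freed of the choice of the end.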

How the results depend on the processing

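In 132 comparisons of 13 results with 13 alternatives no value changed sign, and 78 stayed within the interval of the reported value. For 10 of them the interval of the alternative itself holds no difference, so that the kept sign says nothing there; these are named beside the results. Equal list length leaves the late list as it is and was not run for its density and MeDIP share. The other 54 are given here, and their causes were not tested beyond what each alternative changes. Against an interior limited to 1 to 5 Mb from the ends, the density ratios were 2.02 for early, 2.03 for mid, 4.30 for late and 1.29 for MeDIP peaks, the sharing differences 12.5 points for early with mid, 8.69 for mid with early, 2.16 for late with early and 7.27 for late with mid, and the MeDIP differences 6.54 for early and 6.43 for mid. With ends of 500 kb, the density ratios were 4.30 for mid and 4.10 for MeDIP, the difference of early with mid 19.8, those of the MeDIP share 14.01 for early, 9.81 for mid and 0.0484 for late, and that of regions of all 3 stages 11.4. With ends of 2 Mb, the density ratios were 10.8 for late and 5.62 for MeDIP and the difference of regions of all 3 stages 5.55. Among peaks above the median score of their list the density ratios were 5.78, 6.84, 20.99 and 6.71 in the order early, mid, late and MeDIP, the difference of mid with early 18.4 and the MeDIP differences 23.6 for early and 16.3 for mid. With ORCA lists of equal length the density ratios were 10.9 for early and 12.6 for mid, the MeDIP differences 19.5 for early and 4.57 for mid, the difference of MeDIP peaks with ORCA 2.24 and that of regions of all 3 stages 14.4. Without the outermost 100 kb the density ratios were 3.56 for early, 10.97 for late and 5.30 for MeDIP, and the difference of MeDIP peaks with ORCA 2.59. With stretches without peaks kept in the interior the density ratios were 4.83 for early, 6.33 for mid and 5.95 for MeDIP, and by covered bases 5.09 for early and 6.55 for MeDIP. Without the widest 5% of peaks the MeDIP density ratio was 4.72, the MeDIP differences 17.8 for early and 11.1 for mid, and the difference of MeDIP peaks with ORCA 2.33. An overlap of 50% of the shorter peak gave a MeDIP difference of 19.3 for mid. Weighting to score ranks gave 17.1 for early with mid, 7.15 for mid with early, 3.12 for late with early and 7.24 for late with mid, and weighting to widths 1.66 for MeDIP peaks with ORCA. Without 13q the mid density ratio was 4.81 and the difference of MeDIP peaks with ORCA 2.63.

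The limits are set by 1 sample per group, by unknown read depth, by another caller label on the late list and by lists of unequal length. The late list had 680 peaks on these chromosomes against 5791 early ones. No paired analysis was possible because each group held 1 sample. The stretches without peaks stand in for unassembled sequence, since no hg19 sequence was used here. Genes and sequence motifs at the named regions, planned if such a sequence was given, were not analysed here.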
